A study of Homo sapiens with 183 samples.

Results

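The genes described here are FOS, FOSB, FOSL1, FOSL2, JUN, JUNB, JUND, ATF3, EGR1 and IER3, 10 of the 19875 gene names measured by RNA sequencing in 183 libraries. They were taken by name from each of the 8 deposited tables, and all 10 have a value in every table. Their mRNA levels are given in TPM (transcripts per 1e+06 transcripts of a library, which sets levels per transcript length), in the control libraries of each cell line and after each perturbation. The cells were 9 human cancer lines. AsPC-1, SUIT-2, CFPAC-1, T3M-4 and BxPC-3 come from pancreatic ductal adenocarcinoma, T84 from colorectal cancer, A-375 from melanoma, H1048 from small-cell lung cancer of the tuft cell-like kind and RH30 from rhabdomyosarcoma.

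In the knockout experiments, Cas9-expressing cells received a single guide RNA (sgRNA) and were collected on day 5. The guides cut KLF5 (a transcription factor of epithelial cells), RUVBL1 or RUVBL2 (ATPases that form a joint hexamer), CDK1 or RPA3 (genes every dividing cell needs), SERPINB5 (a serpin) or CHD4 (a chromatin remodeller). The control guide, sgRosa, stands for a cut with no target gene under study. AsPC-1 was profiled in experiment 1 (2 sgRosa and 6 sgKLF5 libraries), experiment 2 (4 each of sgRosa, sgRUVBL1 and sgSERPINB5), experiment 3 (4 each of sgRosa, sgKLF5, sgRUVBL1 and sgRUVBL2, and 2 each of sgCDK1 and sgRPA3) and a CHD4 experiment (4 sgRosa and 4 sgCHD4). T3M-4 and BxPC-3 experiment 1 each held 2 sgRosa, 4 sgKLF5 and 2 sgRPA3 libraries. Their experiment 2 held 4 sgRosa, 4 sgKLF5, 2 sgCDK1 and 2 sgRPA3 libraries in each line, with 3 sgRUVBL1 and 4 sgRUVBL2 libraries in T3M-4 and 4 and 3 in BxPC-3. SUIT-2 had 4 sgRosa and 4 sgKLF5 libraries, and CFPAC-1 had 4 sgRosa, 3 sgKLF5, 4 sgRUVBL1 and 2 each of sgRUVBL2, sgCDK1 and sgRPA3. The study lists several sgRNAs per gene, but 1 each for CDK1 and RPA3, and the labels do not say which one a library carried. It calls the libraries of a group biological replicates without saying how their cultures were kept apart, so a p-value measures only the spread between these libraries.

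The other arm used CB-6644, a small-molecule inhibitor of the RUVBL1 and RUVBL2 ATPase activity, for 24 h, with DMSO as its vehicle control. T84, A-375, H1048 and RH30 were treated without any added vector (4 DMSO and 4 CB-6644 libraries each). AsPC-1 and T3M-4 cells carried an empty vector (EV), a RUVBL1 A62T cDNA or a RUVBL2 dF109 cDNA, delivered by lentivirus; both variants are meant to keep the complex working in the presence of the drug. In CB-6644, RUVBL1 mRNA stood at 2851 and 2032 TPM with A62T in AsPC-1 and T3M-4 (73.7 and 111 TPM with EV), and RUVBL2 mRNA at 2024 and 1223 TPM with dF109 (120.5 and 136 TPM with EV). Each vector had 3 CB-6644 libraries but 1 DMSO library. The 3 DMSO libraries of a line, 1 of each vector, therefore served together as its control, and vector and DMSO library cannot be told apart there. Fewer cells that express a gene and less RNA per cell cannot be told apart in such bulk samples. All differences below are log2(TPM + 1) in the perturbed libraries minus the controls of the same line and experiment, with the standard error (SE) and the adjusted p of limma across all genes. A gene was called higher or lower at an adjusted p under 0.05, and values after ± are standard deviations (SD) over libraries.

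Sequencing depth cannot be read from TPM, and between 11292 and 14024 genes reached 1 TPM in a library. The guide's effect on its own mRNA was visible for RUVBL1 (31.5 to 50.0 TPM on average, against 84.2 to 162 with sgRosa), RUVBL2 (42.1 to 94.0 against 97.8 to 222) and SERPINB5 (71.3 against 182), CDK1 outside CFPAC-1 (46.7 to 128 against 130.3 to 147) and RPA3 in every comparison (20.8 to 72.4 against 33.0 to 92.3). KLF5 mRNA was lower with its guide in CFPAC-1 (144 against 192) and SUIT-2 (177 against 228), and in BxPC-3 it was 275 against 285 and 362 against 335. On average it was higher with the guide in T3M-4 (343 against 299 and 565 against 332) and AsPC-1 (175 against 120 and 168 against 156). CHD4 mRNA was also higher with its guide (82.7 against 66.8). A cut need not lower the mRNA, so this does not check those labels. In CFPAC-1 the libraries labelled sgCDK1 held CDK1 at 200.4 TPM and those labelled sgRPA3 at 86.5 TPM, against 215 TPM with sgRosa, so these groups are named by their labels only. The sgKLF5 replicate 2 of T3M-4 experiment 1 (r = 0.947 with its own group), the sgRosa replicate 1 (r = 0.960) and the sgKLF5 replicate 4 (r = 0.964) of SUIT-2 stood apart, and results that rest on them are given with and without them. Of 5 markers of the labelled origin, 5 reached 1 TPM in T84, RH30, BxPC-3, T3M-4 and CFPAC-1, 4 in SUIT-2 and AsPC-1 (TFF1 missing) and in H1048 (TRPM5 missing), and 3 in A-375, where the melanoma genes PMEL and TYR were under 1 TPM. The lists do not tell all lines apart. AsPC-1 also held 4 of 5 colorectal markers (728 to 1598 TPM summed, against 820 to 894 TPM in T84). T84 held 5 of 5 classical pancreatic markers, and the basal lines BxPC-3 and T3M-4 held 3 of them. Summed over 5 genes each, leukocyte markers reached at most 25.3 TPM and fibroblast markers at most 144 TPM, in AsPC-1 from LUM.

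AP-1 is a transcription factor built from dimers of FOS proteins (FOS, FOSB, FOSL1, FOSL2) with JUN proteins (JUN, JUNB, JUND), or of these with other leucine-zipper proteins. FOS proteins bind DNA only together with a partner, whereas JUN proteins can also pair with themselves, and the dimers bind the palindrome TGACTCA. Several of these genes are immediate early genes: growth factors, stress and MAP kinase signalling switch them on within minutes with no need for new protein, and their mRNAs decay fast. ATF3 is a stress-induced relative that rises when the integrated stress response or DNA damage signalling is active, EGR1 is a zinc-finger factor switched on by serum response factor (SRF) and its ETS-family partners, and IER3 is a small protein linked to cell survival. JUND is the member that most resting cells express steadily.

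The promoters of FOS, EGR1, FOSL2, JUND and ATF3 are shown because these genes moved apart from each other in the comparisons below. RefSeq promoter sequences (GRCh38.p14, 250 bases before to 50 bases after the start site) matched 8 of the 10 members with 9 entries, ATF3 with 2 of them. FOSL1 and IER3 were not matched. On both strands, 4 motifs were searched: TGACTCA (bound by AP-1), TGACGTCA (bound by ATF and CREB dimers and by some JUN dimers), GGGNGNGG (a GC-rich motif of the KLF and SP family) and the CArG box (bound by SRF). Of 35116 promoters of the same length, 4.95% held TGACTCA, 1.85% TGACGTCA, 56.2% GGGNGNGG and 1.29% a CArG box. In the sequences below, written 5′ to 3′ along the gene, every match to one of these motifs is in capitals, and some matches to GGGNGNGG overlap each other. FOS lies at chr14:75278578-75278877 (+ strand), EGR1 at chr5:138465229-138465528 (+), FOSL2 at chr2:28392608-28392907 (+), JUND at chr19:18281573-18281872 (−) and the ATF3 entries at chr1:212565157-212565456 and chr1:212614768-212615067 (+).
FOS: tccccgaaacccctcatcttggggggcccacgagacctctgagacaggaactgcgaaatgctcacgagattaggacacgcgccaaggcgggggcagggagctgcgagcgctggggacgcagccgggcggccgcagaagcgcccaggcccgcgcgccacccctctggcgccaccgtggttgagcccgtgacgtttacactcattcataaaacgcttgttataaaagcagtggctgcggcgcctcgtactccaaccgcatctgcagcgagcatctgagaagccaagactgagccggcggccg
EGR1: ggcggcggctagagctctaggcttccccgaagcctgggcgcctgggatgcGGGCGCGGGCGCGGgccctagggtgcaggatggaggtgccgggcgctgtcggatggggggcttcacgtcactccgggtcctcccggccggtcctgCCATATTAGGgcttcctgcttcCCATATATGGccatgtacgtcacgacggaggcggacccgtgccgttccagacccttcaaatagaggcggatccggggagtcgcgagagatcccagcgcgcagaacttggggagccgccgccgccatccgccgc
FOSL2: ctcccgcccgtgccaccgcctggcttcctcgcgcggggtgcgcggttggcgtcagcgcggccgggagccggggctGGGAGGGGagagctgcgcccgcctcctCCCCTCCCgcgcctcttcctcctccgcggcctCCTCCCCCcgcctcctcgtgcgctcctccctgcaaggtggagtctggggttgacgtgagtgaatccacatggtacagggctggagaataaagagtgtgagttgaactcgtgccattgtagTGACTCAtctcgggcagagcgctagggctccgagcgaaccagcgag
JUND: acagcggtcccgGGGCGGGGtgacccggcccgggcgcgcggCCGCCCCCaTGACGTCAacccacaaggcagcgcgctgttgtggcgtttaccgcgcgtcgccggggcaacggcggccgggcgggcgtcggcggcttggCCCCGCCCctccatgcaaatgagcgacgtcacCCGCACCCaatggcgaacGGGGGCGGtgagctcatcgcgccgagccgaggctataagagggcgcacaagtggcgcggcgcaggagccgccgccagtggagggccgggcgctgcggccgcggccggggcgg
ATF3, upstream start: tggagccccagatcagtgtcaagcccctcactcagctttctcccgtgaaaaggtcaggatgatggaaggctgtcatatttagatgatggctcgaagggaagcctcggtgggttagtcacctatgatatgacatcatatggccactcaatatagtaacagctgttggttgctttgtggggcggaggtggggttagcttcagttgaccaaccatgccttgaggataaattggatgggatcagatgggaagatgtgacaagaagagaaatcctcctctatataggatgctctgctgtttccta
ATF3, downstream start: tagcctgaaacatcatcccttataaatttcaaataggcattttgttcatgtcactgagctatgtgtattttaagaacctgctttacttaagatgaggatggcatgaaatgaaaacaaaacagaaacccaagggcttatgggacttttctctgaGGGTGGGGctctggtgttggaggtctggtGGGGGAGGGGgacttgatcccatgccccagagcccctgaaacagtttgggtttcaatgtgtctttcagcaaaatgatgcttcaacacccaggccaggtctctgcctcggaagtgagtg
Counting from 0 at the start site, EGR1 held 2 CArG boxes, at -105 and -83, and GGGNGNGG at -200 and -194. FOSL2 was the member with TGACTCA in this window, at position 4, beside 3 matches to GGGNGNGG. JUND held TGACGTCA at -200 and 5 matches to GGGNGNGG. The downstream ATF3 start had 3 GGGNGNGG matches (-97, -68 and -66), the upstream one had no match, and FOS had none. Which start of ATF3 these cells use was not tested, so neither entry need be its active promoter. JUN and JUNB held 3 GGGNGNGG matches each and FOSB 2. A match describes the letters only, and a window without one says nothing of the factor.

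Across the control libraries, FOS was highest in AsPC-1 and lowest in RH30, while JUN was highest in RH30 and ATF3 was lowest in SUIT-2, where it overlapped AsPC-1. FOS lay at 0.532 to 1.48 TPM in RH30, 1.78 to 2.67 TPM in H1048, 2.17 to 3.54 TPM in A-375, 7.82 to 8.62 TPM in CFPAC-1, 4.54 to 18.0 TPM in SUIT-2 and 24.8 to 26.9 TPM in T84. It spread over 2.33 to 44.6 TPM in T3M-4, 8.53 to 87.9 TPM in BxPC-3 and 21.4 to 778 TPM in AsPC-1, the lines with several experiments. The neighbours H1048 and A-375 overlapped, as did CFPAC-1 and SUIT-2. FOSB was listed below 1 TPM in every control library of H1048 (0.171 to 0.374 TPM) and RH30 (0 to 0.106 TPM), where it was not tested. FOSL1, which lacks the transactivation domain of FOS, was at 2.90 to 3.68 TPM in H1048, 72.0 to 77.7 TPM in RH30 and 85.2 to 106 TPM in T84, and reached 314 to 362 TPM in A-375 and 194 to 474 TPM in CFPAC-1, which overlapped. FOSL2 ranged from 3.29 to 10.3 TPM in SUIT-2 to 47.7 to 92.5 TPM in T3M-4.

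JUN stood at 605 to 643 TPM in RH30, above every other control library. It was at 77.6 to 107 TPM in CFPAC-1, 59.5 to 64.7 TPM in T84, 19.0 to 20.5 TPM in H1048 and 12.4 to 16.4 TPM in A-375. JUNB was 199 to 233 TPM in BxPC-3 and 133 to 224 TPM in T3M-4, whose ranges overlapped, against 28.5 to 34.9 TPM in RH30 and 29.3 to 38.2 TPM in CFPAC-1, which also overlapped. JUND kept a narrower span, from 13.6 to 34.7 TPM in T3M-4 and 15.3 to 29.0 TPM in SUIT-2 to 37.8 to 94.1 TPM in AsPC-1. ATF3 was at 1.25 to 4.60 TPM in SUIT-2, 7.78 to 9.52 TPM in A-375, 11.6 to 13.1 TPM in CFPAC-1, 27.7 to 31.3 TPM in T84, 37.1 to 40.1 TPM in H1048 and 55.0 to 59.6 TPM in RH30, and none of these neighbours overlapped. The lines with several experiments cut across this order, at 4.23 to 57.2 TPM in AsPC-1, 11.3 to 36.7 TPM in T3M-4 and 11.4 to 34.5 TPM in BxPC-3. EGR1 was 6.77 to 7.94 TPM in A-375 and 7.19 to 7.38 TPM in H1048, which overlapped, 10.9 to 12.2 TPM in RH30 and 36.2 to 44.4 TPM in T84. In SUIT-2 (2.91 to 39.2 TPM) EGR1 overlapped each of these lines, and in T3M-4 (1.03 to 28.8 TPM) all but T84. IER3 ran from 48.0 to 51.2 TPM in RH30 to 319 to 414 TPM in CFPAC-1 and 174 to 416 TPM in AsPC-1, which overlapped. These levels are a description, since lines and experiments were not sequenced side by side as far as the labels say.

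In AsPC-1 the 17 control libraries fell into 2 sets by experiment. FOS was at 561 to 778 TPM with a median of 658 against 21.4 to 37.8 TPM with a median of 31.3 when the 10 libraries of experiments 1, 2 and CHD4 are set beside the 7 of experiment 3 and DMSO. FOSB gave 85.6 to 159 TPM with a median of 118 against 2.85 to 6.36 TPM with a median of 3.46, EGR1 249 to 418 TPM with a median of 329 against 15.1 to 62.9 TPM with a median of 22.7 and JUN 114 to 190.0 TPM with a median of 165 against 14.4 to 23.5 TPM with a median of 18.9. JUNB (248 to 312 TPM with a median of 275 against 100.2 to 137 TPM with a median of 129) and IER3 (358 to 416 TPM with a median of 394 against 174 to 261 TPM with a median of 225) also did not overlap between the sets, whereas FOSL1 did (107 to 312 TPM with a median of 195 against 56.9 to 150.2 TPM with a median of 62). FOSL2, JUND and ATF3 overlapped too, ATF3 at 5.34 to 19.9 TPM against 4.23 to 57.2 TPM. The share of all genes without overlap between the sets was not counted. The highest experiment mean was 28.8 times the lowest for FOS, 43.2 times for FOSB, 16.6 times for EGR1, 8.91 times for JUN and 6.74 times for ATF3. For ATF3 both ends lay in the second set, DMSO (32.2 TPM) over experiment 3 (4.77 TPM). Thus 5 of 10 members were at least 5-fold apart between experiments, DMSO libraries included, against 2.21% of all genes. The median ratio was 5.79 for the members and 1.46 for all genes. Of the other immediate early genes 6 of 25 were as far apart, of the AP-1 target genes 2 of 12, of the bZIP partners 0 of 12 and of the upstream kinases and cofactors 0 of 16. In T3M-4 3 of 10 members were 5-fold apart (FOS, FOSB and EGR1, against 1.75% of genes) and in BxPC-3 1 of 10 (FOS, against 0.949%). The sgRosa experiments of a line differ in the labels by their number only, while the DMSO libraries also differ from them in vector, vehicle and time, so every comparison below stays within an experiment unless a test between experiments is named.

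**Figure D1:**
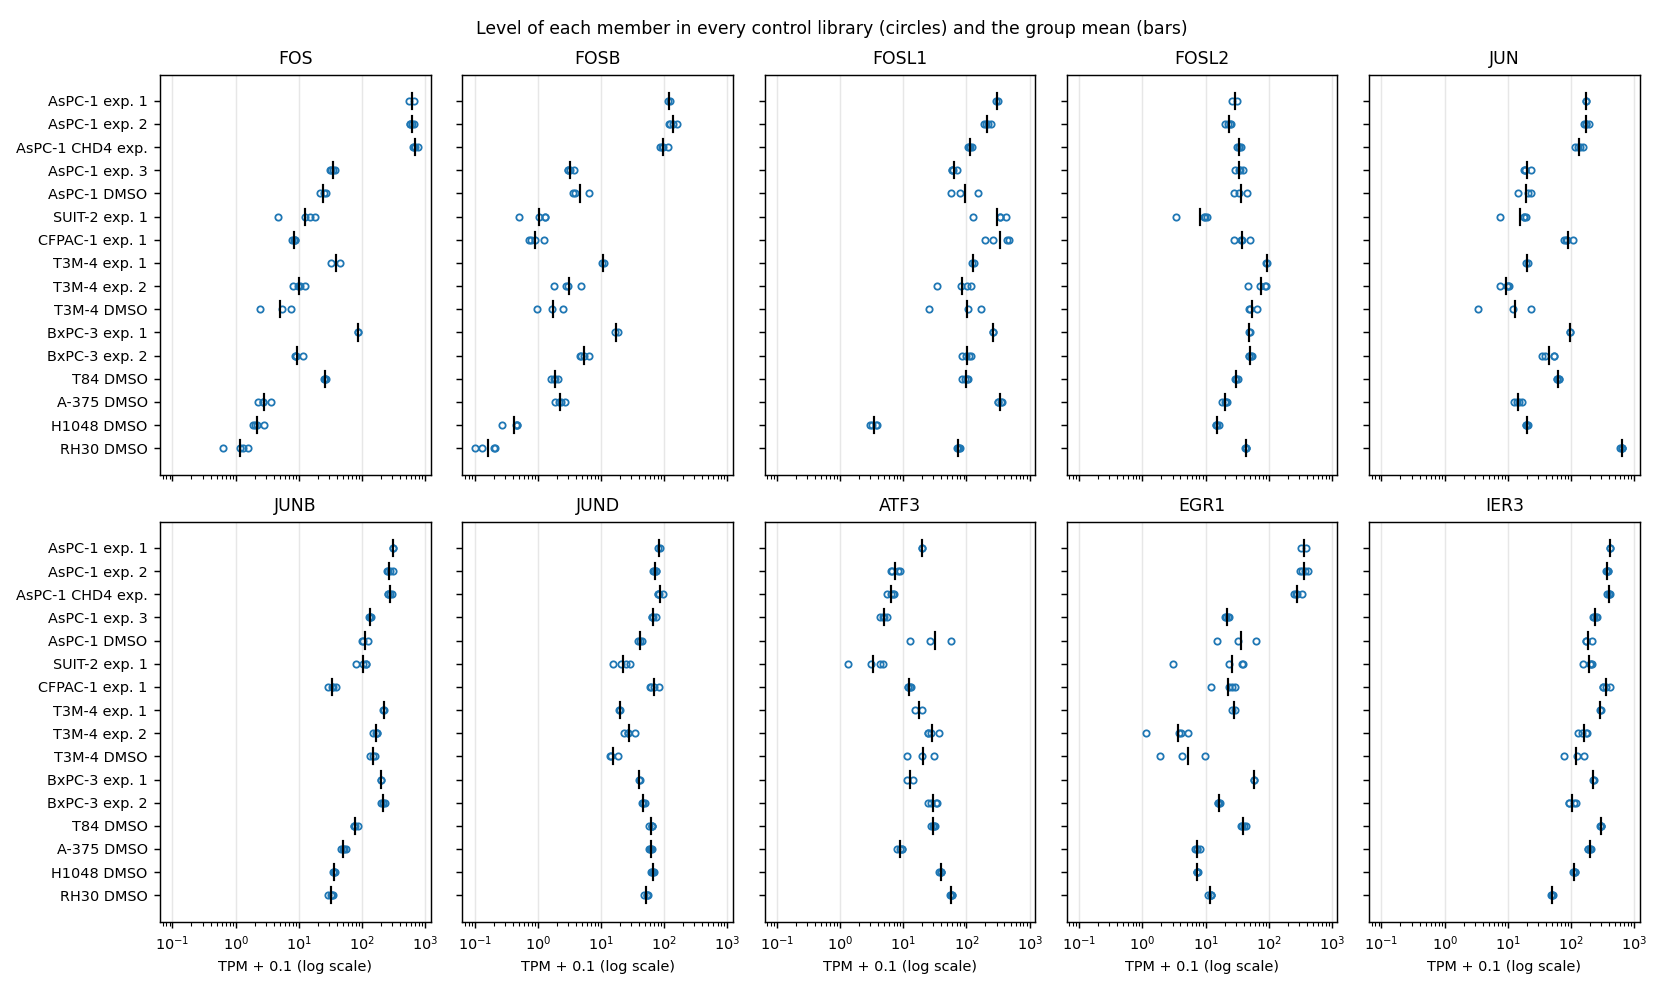
TPM + 0.1 on a log axis for each member in every control library (circles), by line and experiment, with the group mean as a bar. FOS, FOSB, JUN and EGR1 in AsPC-1 sit far apart between the upper 3 rows (experiments 1, 2 and CHD4) and the next 2 (experiment 3 and DMSO), while FOSL2 and JUND lie close together.

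Over the 39 comparisons of a perturbed group with its controls, sgRosa or DMSO, ATF3 was the member called most often in 1 direction. It was higher in 19 and lower in 1, against 31.0% of gene tests called in all (20.1% higher, 10.9% lower). JUNB was higher in 12 and lower in 9, JUN higher in 12 and lower in 6, IER3 higher in 8 and lower in 11, and JUND higher in 7 and lower in 12. FOSB was higher in 12 and lower in 3 of 32 comparisons tested, FOSL2 higher in 11 and lower in 4, EGR1 higher in 10 and lower in 7, FOS higher in 8 and lower in 7, and FOSL1 higher in 6 and lower in 7. Comparisons within an experiment share their control libraries and are not independent of each other.

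KLF5 knockout was measured in 8 comparisons over 5 pancreatic lines. JUN, a core subunit, rose in 5 of them and JUNB, a weaker activator that can hold JUN back, fell in 4, while no comparison called JUN lower or JUNB higher. FOS fell in 5 and rose in 1, FOSL1 fell in 3, and FOSL2 rose in 3. In total 20 member tests were called higher and 15 lower of 79, against 20.6% of gene tests in these comparisons (11.8% higher, 8.81% lower).

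JUN had its largest fitted change in SUIT-2, a line of the classical subtype, with 60.6, 49.5, 48.9 and 54.0 TPM in the sgKLF5 libraries and 7.39, 19.6, 18.2 and 17.8 TPM in the sgRosa libraries. The groups did not overlap, and the log2 difference was 1.77 (SE 0.28, adjusted p = 0.00955), in a comparison that called 3.94% of genes. Without the 2 libraries that stood apart it was 1.46 (adjusted p = 0.000478). In T3M-4, a basal line, experiment 2 gave JUN at 28.9, 27.5, 25.9 and 25.0 TPM against 9.44, 9.81, 10.5 and 7.30 TPM, a difference of 1.45 (SE 0.12, adjusted p = 2.58e-08) where 34.6% of genes were called. All sgKLF5 libraries lay above all sgRosa libraries there too. BxPC-3, also basal, held JUN at 88.1, 94.5, 88.5 and 96.4 TPM against 54.0, 53.4, 38.5 and 34.5 TPM in experiment 2, 1.04 (SE 0.15, adjusted p = 5.17e-05), with 34.6% of genes called. AsPC-1 experiment 3 gave 38.9, 42.0, 37.6 and 33.2 TPM against 18.9, 18.8, 18.2 and 23.2 TPM, 0.91 (SE 0.10, adjusted p = 1.47e-06), with 27.8% of genes called. In AsPC-1 experiment 1 the sgKLF5 libraries ran from 184 to 237 TPM (lowest to highest of 6) against 171 and 169.9 TPM, a smaller difference of 0.26 (SE 0.09, adjusted p = 0.0479). In the other comparisons JUN changed by 0.20 in CFPAC-1 (adjusted p = 0.119), 0.30 in BxPC-3 experiment 1 (adjusted p = 0.0504) and 1.03 in T3M-4 experiment 1 (adjusted p = 0.257).

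JUNB was lower in the sgKLF5 libraries of AsPC-1 and BxPC-3 in both experiments of each line. AsPC-1 experiment 3 gave JUNB at 58.2, 74.5, 74.5 and 73.0 TPM against 129, 136, 137 and 133 TPM with sgRosa, a difference of -0.93 (SE 0.07, adjusted p = 1.43e-08), and no library of a group reached the other. In experiment 1 the lowest, median and highest of the 6 sgKLF5 libraries were 164, 180.5 and 203 TPM, below the sgRosa libraries at 312 and 312 TPM (-0.78, SE 0.09, adjusted p = 8.96e-05, where 25.9% of genes were called). In BxPC-3 JUNB stood at 119, 111, 114 and 118 TPM against 201 and 201 TPM in experiment 1, -0.79 (SE 0.07, adjusted p = 3.04e-05), with 16.2% of genes called. In that experiment the summed fibroblast markers were also higher, at 68.4 to 112 TPM with sgKLF5 and 17.9 to 20.5 TPM with sgRosa (COL1A1 2.09 and COL1A2 2.29 on the log2 scale), against 3.45 to 5.53 and 4.84 to 8.01 TPM in experiment 2, and their part in the BxPC-3 changes and in the differences between its experiments was not tested. JUNB fell by 0.48 on the log2 scale in experiment 2 (adjusted p = 0.000368). T3M-4 experiment 2 had JUNB at 158, 171, 159 and 159.7 TPM against 167, 175, 175 and 148 TPM, overlapping groups with a difference of -0.04 (95% interval -0.17 to 0.09). CFPAC-1 (JUNB 0.02, 95% interval -0.18 to 0.23) was not called either, in a comparison that called 16.2% of genes (3.26% higher). JUND was higher in T3M-4 experiment 1, at 51.2, 36.6, 51.0 and 48.6 TPM against 20.2 and 19.4 TPM (1.19, SE 0.25, adjusted p = 0.0357, 5.72% of genes called). Without replicate 2, which stood apart, it was 1.3 (adjusted p = 0.000731), and with the GC trend removed 0.51 (adjusted p = 0.183). Genes in the upper quartile of GC content exceeded those in the lower quartile by 0.33 to 1.37 on the log2 scale in these sgKLF5 libraries and by -0.33 to -0.21 with sgRosa.

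That library also decided how many members were called in T3M-4 experiment 1. With it, JUND was the only member called. Without it, EGR1 (2.4, adjusted p = 0.00235), FOSB (1.78, adjusted p = 0.00140), JUN (1.51, adjusted p = 7.43e-05), ATF3 (1.25, adjusted p = 0.00121) and FOS (1.17, adjusted p = 0.00980) were higher as well. EGR1 shows the spread: 124, 34.6, 180.2 and 151 TPM in the 4 sgKLF5 libraries and 26.5 and 28.8 TPM with sgRosa, with replicate 2 lowest. In SUIT-2, leaving out the 2 libraries that stood apart added ATF3 (0.83) and FOSL2 (0.59) as higher and FOS (-0.75) and JUNB (-0.41) as lower, with adjusted p of 0.0325, 0.0198, 0.0478 and 0.0147.

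Among the FOS proteins, FOS was lower with sgKLF5 in both experiments of AsPC-1 and in CFPAC-1, and split by experiment in T3M-4 and BxPC-3. In AsPC-1 experiment 3 it stood at 15.3, 21.6, 19.7 and 15.1 TPM against 31.3, 32.7, 37.8 and 34.6 TPM, -0.90 (SE 0.15, adjusted p = 0.000105). T3M-4 experiment 2 gave FOS at 5.85, 6.04, 6.70 and 7.14 TPM against 9.62, 10.5, 12.5 and 8.05 TPM (-0.57, SE 0.11, adjusted p = 0.000373). Both comparisons had sgKLF5 libraries below all sgRosa libraries. In T3M-4 experiment 1 FOS was 0.65 with every library (adjusted p = 0.503) and higher without replicate 2, as given above. BxPC-3 gave FOS at 61.0, 56.3, 48.7 and 59.6 TPM against 87.9 and 86.4 TPM in experiment 1 (-0.63, SE 0.10, adjusted p = 0.00229) and 14.8, 15.2, 12.1 and 13.2 TPM against 11.4, 8.80, 8.53 and 8.84 TPM in experiment 2 (0.52, SE 0.16, adjusted p = 0.0187). AsPC-1 experiment 1 (FOS -0.33, adjusted p = 0.00981) and CFPAC-1 (FOS -0.46, adjusted p = 0.0363) were lower. FOSL1, a target of ERK signalling, fell in AsPC-1 experiment 1 (-0.58), BxPC-3 experiment 1 (-0.75) and CFPAC-1 (-0.92), where its sgRosa libraries spread from 194 to 474 TPM. FOSL2 rose in AsPC-1 experiments 1 and 3 by 0.74 and 0.70 (adjusted p = 0.00213 and 0.000616), and in T3M-4 experiment 2 by 0.44 (adjusted p = 0.0280).

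ATF3 and IER3 moved in different directions between the experiments of BxPC-3. ATF3 rose in AsPC-1 experiment 1, where its 6 sgKLF5 libraries had a lowest, median and highest value of 40.4, 46.3 and 57.8 TPM against 19.9 and 19.7 TPM (1.22, SE 0.13, adjusted p = 9.06e-05). In experiment 3 it stood at 5.01, 7.99, 7.38 and 5.25 TPM against 4.23, 4.65, 5.38 and 4.83 TPM, overlapping groups with a difference of 0.34 (95% interval -0.03 to 0.71). In BxPC-3 it was higher in experiment 1 (0.86, adjusted p = 0.00339) and lower in experiment 2, at 16.1, 20.2, 21.0 and 18.9 TPM against 24.6, 27.2, 33.4 and 34.5 TPM (-0.62, SE 0.13, adjusted p = 0.00111). The test of that difference between experiments gave -1.48 (SE 0.21, adjusted p = 1.93e-05) for ATF3, 1.29 (SE 0.17, adjusted p = 8.45e-06) for IER3 and 1.14 (SE 0.23, adjusted p = 0.00124) for FOS, where 13.0% of gene tests between experiments were called over the 3 lines with 2 KLF5 experiments. In this test ATF3 was also lower in the other 2 lines (-0.88 in AsPC-1 and -1.32 in T3M-4), and 14 of 30 member tests were called. Of these, ATF3, IER3 and FOS in BxPC-3 held under every alternative, while the rest, ATF3 in AsPC-1 and T3M-4 included, lost the call in at least 1 of them. Without the library that stood apart in T3M-4 experiment 1, ATF3 differed by -1.53 (adjusted p = 0.000109) and FOS, not called with it, by -1.75 (adjusted p = 0.000111). EGR1 rose in T3M-4 experiment 2, from 3.68, 4.05, 5.22 and 1.03 TPM to 11, 11.4, 11.9 and 12.4 TPM (1.61, SE 0.23, adjusted p = 2.69e-05), and in BxPC-3 experiment 2 (0.86, adjusted p = 0.0255). IER3 rose in SUIT-2, AsPC-1 experiment 1, T3M-4 experiment 2 and BxPC-3 experiment 2 (by 0.81, 0.21, 0.33 and 0.74) and fell in BxPC-3 experiment 1 (-0.55).

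Of the 35 member calls after KLF5 knockout, 19 held under every alternative. The others were lost when a library was left out, each in turn and named here by its group and replicate number, or under another setting. With sgKLF5 in AsPC-1 experiment 1, FOS lost its call without sgRosa 1 (adjusted p = 0.149). FOSB lost it without sgRosa 1 or 2 (adjusted p = 0.0785 to 0.107). JUN lost it without sgRosa 1 or 2 or sgKLF5 2 or 5 or 6 (adjusted p = 0.0565 to 0.224) or with no filter or under median-of-ratios scaling. IER3 lost it without sgRosa 1 or 2 or sgKLF5 1 or 2 or 6 (adjusted p = 0.0523 to 0.178) or with no filter or under median-of-ratios scaling or with the GC trend removed. With sgKLF5 in SUIT-2, IER3 lost its call without sgKLF5 1 or 2 (adjusted p = 0.0523 to 0.0685) or with the GC trend removed. With sgKLF5 in CFPAC-1, FOS lost its call without sgKLF5 1 or 2 or 3 or sgRosa 1 or 3 or 4 (adjusted p = 0.0503 to 0.148) or with no filter or under median-of-ratios scaling or with the GC trend removed or in a fit of only the groups compared. FOSL1 lost it without sgKLF5 2 or 3 or sgRosa 1 or 3 (adjusted p = 0.0501 to 0.0560) or in a fit of only the groups compared. With sgKLF5 in T3M-4 experiment 1, JUND lost its call without sgKLF5 1 or 3 or 4 or sgRosa 1 or 2 (adjusted p = 0.0833 to 0.328) or with the GC trend removed. With sgKLF5 in T3M-4 experiment 2, FOSL2 lost its call without sgKLF5 2 or 3 or sgRosa 4 (adjusted p = 0.0615 to 0.0661) or in a fit of only the groups compared. JUND lost it without 12 libraries in turn (adjusted p = 0.0503 to 0.126) or with no filter or under median-of-ratios scaling or with the GC trend removed or in a fit of only the groups compared. IER3 lost it under median-of-ratios scaling or with the GC trend removed (adjusted p = 0.0586 to 0.0864). With sgKLF5 in BxPC-3 experiment 1, FOSL1 lost its call without sgRosa 1 or 2 (adjusted p = 0.0925 to 0.0973). JUND lost it without sgRosa 2 (adjusted p = 0.0645). ATF3 lost it without sgRosa 1 (adjusted p = 0.0666). With sgKLF5 in BxPC-3 experiment 2, FOS lost its call without sgKLF5 1 or 2 or sgRosa 3 or 4 (adjusted p = 0.05004 to 0.0560). EGR1 lost it without sgKLF5 1 or 2 or sgRosa 2 or 3 or 4 (adjusted p = 0.0521 to 0.0599).

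**Figure D2:**
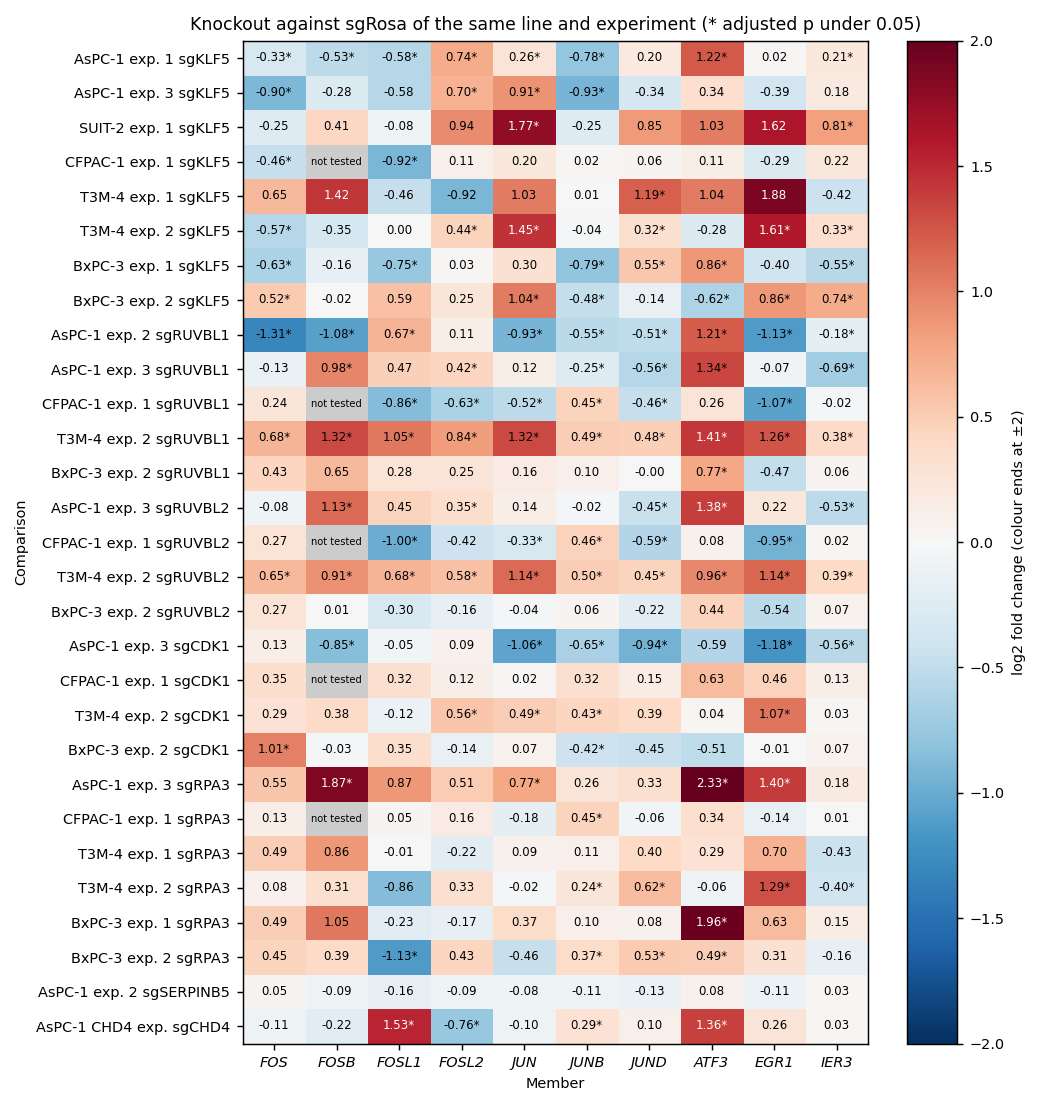
Log2 fold change, as log2(TPM + 1), of each member (columns) in each knockout against sgRosa of the same line and experiment (rows), with the value written in each cell, a star at an adjusted p under 0.05 and grey where FOSB was under the limit of 1 TPM. ATF3 is red in most rows, JUN is starred red in 5 of the 8 sgKLF5 rows, and all 10 members are starred red in the T3M-4 rows of sgRUVBL1 and sgRUVBL2.

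After RUVBL1 knockout ATF3 rose in 4 of 5 comparisons and after RUVBL2 knockout in 2 of 4, with no comparison lower, and the other members differed in direction between lines and, in AsPC-1, between experiments. Of 49 member tests with sgRUVBL1, 17 were higher and 15 lower (45.6% of gene tests called, 25.6% higher and 20.1% lower). Of 39 with sgRUVBL2, 14 were higher and 6 lower (30.1% called, 19.8% higher and 10.3% lower). ATF3 stood at 17.8, 16.4, 19.1 and 20.3 TPM with sgRUVBL1 and 6.61, 6.18, 8.68 and 8.16 TPM with sgRosa in AsPC-1 experiment 2, 1.21 (SE 0.11, adjusted p = 2.52e-07). In AsPC-1 experiment 3 it was at 17.7, 18.4, 10.2 and 9.95 TPM with sgRUVBL1 and 13.7, 13.4, 13.3 and 15.8 TPM with sgRUVBL2 against 4.23, 4.65, 5.38 and 4.83 TPM, differences of 1.34 (SE 0.18, adjusted p = 7.36e-06) and 1.38 (SE 0.18, adjusted p = 1.23e-05). T3M-4 gave 73.7, 85.6 and 70.1 TPM and 43.3, 65.0, 67.4 and 49.8 TPM against 24.6, 24.8, 36.7 and 27.4 TPM, 1.41 (SE 0.14, adjusted p = 4.21e-07) and 0.96 (SE 0.13, adjusted p = 1.17e-05). None of these groups overlapped with their controls. In BxPC-3, where 16.0% and 9.76% of genes were called with sgRUVBL1 and sgRUVBL2, ATF3 was the only member called with sgRUVBL1 (53.7, 56.8, 43.1 and 52.3 TPM against 24.6, 27.2, 33.4 and 34.5 TPM, 0.77 (SE 0.13, adjusted p = 0.000764)), and no member was called with sgRUVBL2 (ATF3 0.44, adjusted p = 0.0508). CFPAC-1 had ATF3 at 18.0, 19.5, 11.9 and 11.9 TPM against 12.9, 13.1, 11.9 and 11.6 TPM, with a difference of 0.26 (95% interval -0.08 to 0.59).

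In AsPC-1 the response of the immediate early members to RUVBL1 knockout differed between the experiment in which they started high and the one in which they started low. In experiment 2, where 55.8% of genes were called, FOS stood at 278, 247, 236 and 225 TPM against 578, 578, 622 and 668 TPM, a difference of -1.31 (SE 0.08, adjusted p = 6.81e-09). FOSB was at 65.1, 58.4, 69.7 and 59.7 TPM against 120.5, 123, 139.5 and 159 TPM (-1.08, SE 0.14, adjusted p = 1.18e-05) and EGR1 at 160.0, 169, 159 and 169 TPM against 318, 336, 377 and 418 TPM (-1.13, SE 0.10, adjusted p = 1.72e-07). JUN had 92.6, 89.0, 84.8 and 96.7 TPM against 161, 173, 172 and 190.0 TPM (-0.93, SE 0.06, adjusted p = 1.76e-08). Each of the 4 genes had all sgRUVBL1 libraries below all sgRosa libraries, and JUNB (-0.55), JUND (-0.51) and IER3 (-0.18) were lower as well. FOSL1 went the other way, from 189, 201, 218 and 241 TPM to 310.1, 327, 344 and 371 TPM (0.67, SE 0.08, adjusted p = 2.58e-06).

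In experiment 3, with 51.9% of genes called, FOS was at 30.4, 24.3, 37.3 and 33.3 TPM with sgRUVBL1 and 31.3, 32.7, 37.8 and 34.6 TPM with sgRosa, overlapping groups with a difference of -0.13 (95% interval -0.44 to 0.18). FOSB rose there, from 2.85, 3.15, 3.61 and 2.94 TPM to 9.09, 8.80, 6.38 and 5.05 TPM (0.98, SE 0.15, adjusted p = 3.32e-05). JUN (0.12, 95% interval -0.09 to 0.34) and EGR1 (-0.07, 95% interval -0.54 to 0.40) were not called. The difference between the experiments itself, experiment 3 minus experiment 2, was 2.06 (SE 0.22, adjusted p = 7.04e-07) for FOSB, 1.18 (SE 0.18, adjusted p = 0.000139) for FOS, 1.06 (SE 0.27, adjusted p = 0.00783) for EGR1, 1.05 (SE 0.13, adjusted p = 4.69e-06) for JUN and -0.51 (SE 0.12, adjusted p = 0.00445) for IER3. This test called 18.2% of genes, and these 5 of the 10 members stayed called under every alternative run. ATF3 was raised in both, with a difference between experiments of 0.12 (95% interval -0.33 to 0.57). IER3 fell in experiment 3, from 235, 246, 225 and 261 TPM to 144, 142, 151 and 158 TPM (-0.69, SE 0.10, adjusted p = 1.67e-05), as JUND did (-0.56, SE 0.14, adjusted p = 0.00221).

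The sgRUVBL2 libraries of AsPC-1 experiment 3 (43.2% of genes called) gave a log2 difference of 1.13 for FOSB, -0.53 for IER3, -0.45 for JUND and 0.35 for FOSL2, with adjusted p of 1.76e-05, 0.000371, 0.0127 and 0.0463. FOSB stood at 8.52, 7.10, 7.64 and 9.0 TPM, above all sgRosa libraries. The sgRUVBL1 and sgRUVBL2 groups share these sgRosa libraries.

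**Figure D3:**
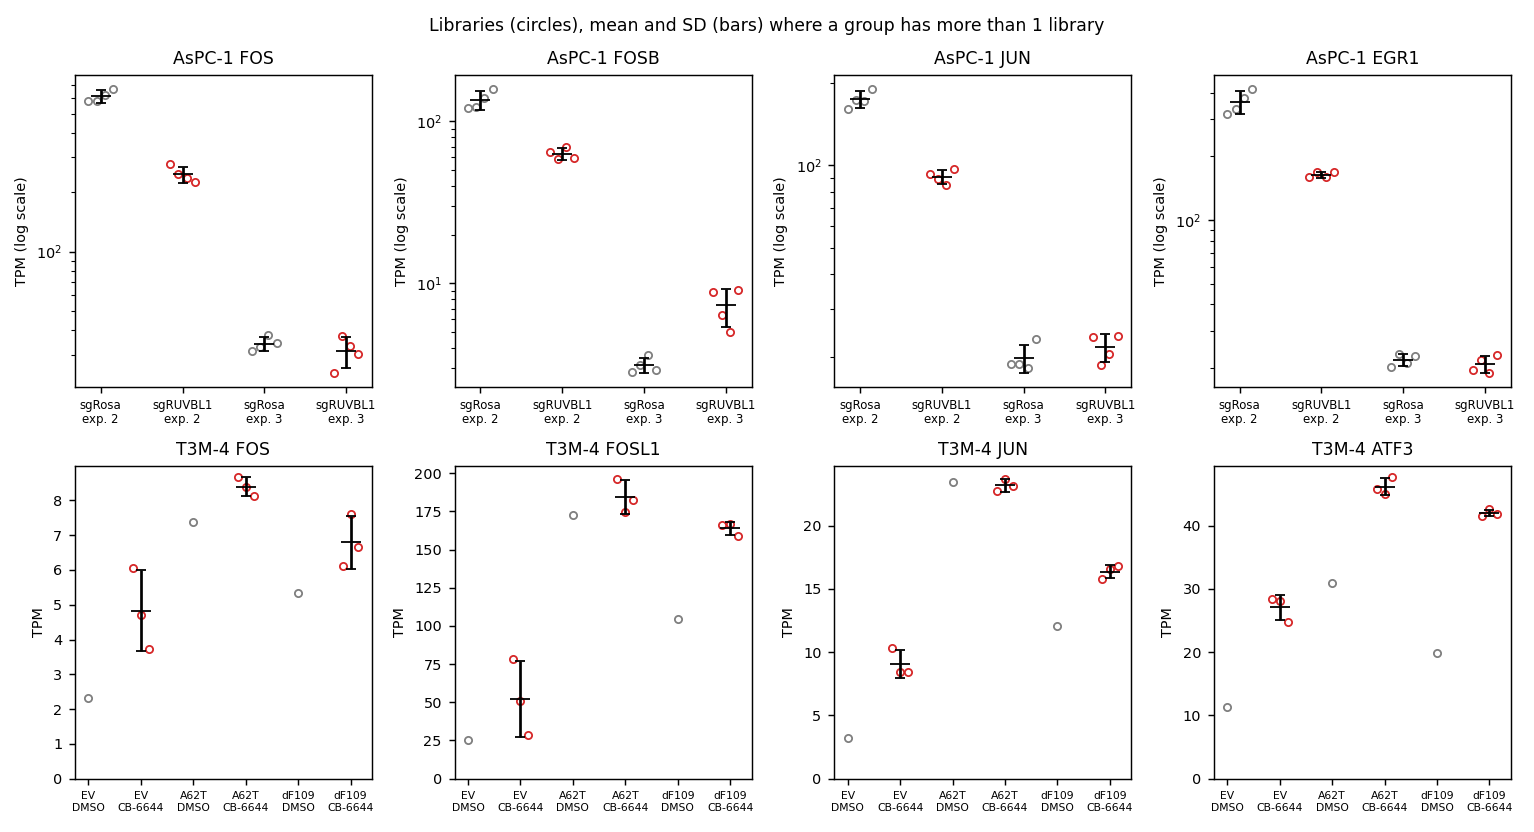
Upper panels: TPM on a log axis of FOS, FOSB, JUN and EGR1 in AsPC-1 with sgRosa (grey) and sgRUVBL1 (red) in experiments 2 and 3. Lower panels: TPM of FOS, FOSL1, JUN and ATF3 in T3M-4 by vector in DMSO (grey) and CB-6644 (red). Circles are libraries, and bars show the mean and SD where a group has more than 1 library. In experiment 2 all 4 genes fall with sgRUVBL1, from FOS at 578 to 668 TPM to 225 to 278 TPM, whereas in experiment 3 FOSB rises. In T3M-4 the lone DMSO libraries of the 3 vectors differ widely, with FOSL1 at 25.6, 173 and 104 TPM.

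In T3M-4 every member rose after either knockout, though JUND and IER3 with both guides and FOSL1 with sgRUVBL2 were not called under median-of-ratios scaling. JUN went from 9.44, 9.81, 10.5 and 7.30 TPM with sgRosa to 21.8, 28.9 and 23.1 TPM with sgRUVBL1 and 18.7, 24.6, 24.1 and 19.0 TPM with sgRUVBL2, 1.32 (SE 0.13, adjusted p = 2.28e-07) and 1.14 (SE 0.12, adjusted p = 4.71e-07). FOSB went from 2.89, 2.71, 4.63 and 1.70 TPM to 8.10, 9.77 and 8.11 TPM (1.32, SE 0.20, adjusted p = 2.39e-05) and 4.69, 8.14, 7.62 and 5.08 TPM (0.91, SE 0.18, adjusted p = 0.000464). The other rises ran from 0.38 (IER3) to 1.26 (EGR1) with sgRUVBL1 and from 0.39 (IER3) to 1.14 (EGR1) with sgRUVBL2. In these comparisons 60.5% and 54.5% of genes were called (45.9% and 39.3% higher), and the median gene was higher by 0.25 and 0.19 on the log2 scale. The calls of ATF3, JUN, FOS, FOSB, EGR1, JUNB and FOSL2 held under every alternative with both guides.

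In CFPAC-1 EGR1, FOSL1, JUN and JUND were lower with both guides, with 43.8% of genes called for sgRUVBL1 and 12.1% for sgRUVBL2 (6.54% and 2.83% higher, and 9.26% lower with sgRUVBL2). EGR1 was at 10.5, 9.24, 12.1 and 7.87 TPM with sgRUVBL1 and 14.7 and 7.80 TPM with sgRUVBL2 against 26.1, 29.3, 23.5 and 12.2 TPM, -1.07 (SE 0.23, adjusted p = 0.00156) and -0.95 (SE 0.28, adjusted p = 0.0345). JUN was at 56.3, 64.9, 61.6 and 62.8 TPM with sgRUVBL1 against 86.4, 107, 84.6 and 77.6 TPM (-0.52, SE 0.08, adjusted p = 0.000213). FOSL1 (-0.86 and -1.0) and JUND (-0.46 and -0.59) were lower with both guides, and FOSL2 with sgRUVBL1 (-0.63). JUNB was the exception, higher at 0.45 and 0.46 (adjusted p = 0.00124 and 0.0145). None of the 5 calls with sgRUVBL2, which has 2 libraries, held under every alternative.

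Of the member calls after RUVBL1 knockout 28 of 32 held under every alternative, and of those after RUVBL2 knockout 11 of 20. With sgRUVBL1 in AsPC-1 experiment 3, FOSL2 lost its call without sgRosa 4 or sgRUVBL1 1 or 2 (adjusted p = 0.0565 to 0.0610) or under median-of-ratios scaling. With sgRUVBL2 in AsPC-1 experiment 3, FOSL2 lost its call without 11 libraries in turn (adjusted p = 0.0541 to 0.144) or with no filter or under median-of-ratios scaling. With sgRUVBL1 in CFPAC-1, JUND lost its call under median-of-ratios scaling or with the GC trend removed (adjusted p = 0.0757 to 0.158). With sgRUVBL2 in CFPAC-1, FOSL1 lost its call without sgRosa 1 or 3 or sgRUVBL2 1 or 2 (adjusted p = 0.0508 to 0.136) or in a fit of only the groups compared. JUN lost it without 14 libraries in turn (adjusted p = 0.0508 to 0.212) or with no filter or under median-of-ratios scaling or with the GC trend removed or in a fit of only the groups compared. JUNB lost it without sgRUVBL2 1 (adjusted p = 0.20) or in a fit of only the groups compared. JUND lost it without sgRUVBL2 1 or 2 (adjusted p = 0.0803 to 0.136) or under median-of-ratios scaling or in a fit of only the groups compared. EGR1 lost it without sgRosa 1 or 2 or 3 or sgRUVBL2 1 or 2 (adjusted p = 0.0575 to 0.386) or with no filter or under median-of-ratios scaling or in a fit of only the groups compared. With sgRUVBL1 in T3M-4 experiment 2, JUND lost its call under median-of-ratios scaling (adjusted p = 0.149). IER3 lost it under median-of-ratios scaling or with the GC trend removed (adjusted p = 0.261 to 0.376). With sgRUVBL2 in T3M-4 experiment 2, FOSL1 lost its call without 16 libraries in turn (adjusted p = 0.0525 to 0.151) or with no filter or under median-of-ratios scaling or with the GC trend removed or in a fit of only the groups compared. JUND lost it under median-of-ratios scaling (adjusted p = 0.0586). IER3 lost it under median-of-ratios scaling or with the GC trend removed (adjusted p = 0.0623 to 0.104).

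CDK1 and RPA3 are needed by every dividing cell, and these groups, with 1 listed guide for each gene, show the members after a lethal cut elsewhere. In AsPC-1 experiment 3 the guides moved JUN and EGR1 in opposite directions. JUN was at 8.78 and 9.06 TPM with sgCDK1 and 35.5 and 33.1 TPM with sgRPA3 against 18.9, 18.8, 18.2 and 23.2 TPM, -1.06 (SE 0.13, adjusted p = 1.63e-05) and 0.77 (SE 0.13, adjusted p = 0.00331). FOSB was at 1.08 and 1.51 TPM and 14.8 and 13.5 TPM against 2.85, 3.15, 3.61 and 2.94 TPM, -0.85 (SE 0.18, adjusted p = 0.00338) and 1.87 (SE 0.18, adjusted p = 1.39e-05). ATF3, which DNA damage signalling can induce, rose with sgRPA3 from 4.23, 4.65, 5.38 and 4.83 TPM to 29.8 and 26.1 TPM (2.33, SE 0.22, adjusted p = 7.53e-06), while sgCDK1 left it at 2.46 and 3.24 TPM (-0.59, adjusted p = 0.0711). This sgRPA3 comparison called 0.654% of genes (0.0164% lower) and 4 of 10 members, all higher, and the sgCDK1 comparison 16.7% of genes (6.44% lower) and 6 of 10 members, all lower. EGR1 changed by -1.18 with sgCDK1 and 1.4 with sgRPA3, and JUND (-0.94), JUNB (-0.65) and IER3 (-0.56) fell with sgCDK1. Over all 10 comparisons with these guides, 17 member tests were higher and 9 lower of 98 (9.83% of gene tests called, 6.46% higher and 3.37% lower), and 6 of the 26 calls held under every alternative: JUN, JUNB and JUND with sgCDK1 and ATF3 and FOSB with sgRPA3 in AsPC-1, and ATF3 with sgRPA3 in BxPC-3 experiment 1.

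BxPC-3 experiment 1 gave ATF3 at 51.7 and 53.4 TPM with sgRPA3 against 11.4 and 14.3 TPM, 1.96 (SE 0.18, adjusted p = 0.00195), where 0.307% of genes were called. In experiment 2, sgRPA3 (20.8% of genes called) lowered FOSL1 from 119, 110.0, 98.3 and 85.7 TPM to 45.0 and 47.8 TPM (-1.13, SE 0.34, adjusted p = 0.0241) and raised JUND (0.53), ATF3 (0.49) and JUNB (0.37). With sgCDK1 (5.82% called) FOS was higher, at 20.5 and 19.2 TPM against 11.4, 8.80, 8.53 and 8.84 TPM (1.01, SE 0.20, adjusted p = 0.00416), and JUNB lower (-0.42). In T3M-4 experiment 2, EGR1 rose with both guides, from 3.68, 4.05, 5.22 and 1.03 TPM to 8.25 and 7.21 TPM with sgCDK1 (1.07, SE 0.28, adjusted p = 0.0157, 16.8% of genes called) and 10.4 and 8.12 TPM with sgRPA3 (1.29, SE 0.28, adjusted p = 0.00343, 24.6% called). ATF3 there was at 28.4 and 29.3 TPM and 26.0 and 27.6 TPM against 24.6, 24.8, 36.7 and 27.4 TPM, differences of 0.04 and -0.06 (95% intervals -0.30 to 0.38 and -0.40 to 0.28). Limma called no gene at all with sgRPA3 in T3M-4 experiment 1 (189 genes at an unadjusted p under 0.05) or with the libraries labelled sgCDK1 in CFPAC-1 (1477 genes). Those labelled sgRPA3 in CFPAC-1 had JUNB higher by 0.45 (adjusted p = 0.0174, 11.6% of genes called, 8.17% higher).

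With sgCDK1 in AsPC-1 experiment 3, FOSB lost its call without sgCDK1 1 (adjusted p = 0.0944). EGR1 lost it without sgCDK1 1 or 2 (adjusted p = 0.0595 to 0.0704). IER3 lost it without sgCDK1 1 (adjusted p = 0.0705). With sgRPA3 in AsPC-1 experiment 3, JUN lost its call without sgRPA3 1 or 2 (adjusted p = 0.0509 to 0.188). EGR1 lost it without sgRosa 1 or sgRPA3 1 or 2 (adjusted p = 0.0530 to 0.379). With sgRPA3 in CFPAC-1, JUNB lost its call without sgRPA3 1 or 2 (adjusted p = 0.102 to 0.184) or under median-of-ratios scaling or with the GC trend removed or in a fit of only the groups compared. With sgCDK1 in T3M-4 experiment 2, FOSL2 lost its call without 11 libraries in turn (adjusted p = 0.0501 to 0.234) or with no filter or in a fit of only the groups compared. JUN lost it without sgCDK1 1 or 2 (adjusted p = 0.0826 to 0.179) or in a fit of only the groups compared. JUNB lost it in a fit of only the groups compared (adjusted p = 0.0788). EGR1 lost it without sgCDK1 1 or 2 (adjusted p = 0.0755 to 0.123) or in a fit of only the groups compared. With sgRPA3 in T3M-4 experiment 2, JUNB lost its call without sgRosa 4 or sgRPA3 2 (adjusted p = 0.0548 to 0.327) or under median-of-ratios scaling or with the GC trend removed or in a fit of only the groups compared. JUND lost it without sgRPA3 2 (adjusted p = 0.167) or with the GC trend removed or in a fit of only the groups compared. EGR1 lost it in a fit of only the groups compared (adjusted p = 0.116). IER3 lost it without sgRPA3 2 (adjusted p = 0.0901) or in a fit of only the groups compared. With sgCDK1 in BxPC-3 experiment 2, FOS lost its call without sgCDK1 1 (adjusted p = 0.0818). JUNB lost it without sgCDK1 1 or 2 or sgRosa 3 or 4 (adjusted p = 0.0510 to 0.358). With sgRPA3 in BxPC-3 experiment 2, FOSL1 lost its call without sgRosa 1 or 2 or sgRPA3 1 or 2 (adjusted p = 0.0535 to 0.162). JUNB lost it without sgRosa 2 or sgRPA3 1 or 2 (adjusted p = 0.0557 to 0.226) or with the GC trend removed. JUND lost it without sgRosa 1 or 2 or sgRPA3 1 or 2 (adjusted p = 0.0520 to 0.193). ATF3 lost it without sgRosa 1 or 2 or sgRPA3 1 or 2 (adjusted p = 0.0776 to 0.190) or with no filter.

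Set directly against the mean of the CDK1 and RPA3 knockouts of the same experiment, the RUVBL1 and RUVBL2 knockouts had higher ATF3 in 6 of 6 comparisons over AsPC-1, T3M-4 and BxPC-3. The differences were 1.42 (SE 0.14, adjusted p = 1.04e-06) and 0.97 (SE 0.13, adjusted p = 2.47e-05) in T3M-4, 0.78 (SE 0.13, adjusted p = 0.000422) and 0.45 (SE 0.14, adjusted p = 0.0293) in BxPC-3, and 0.47 (SE 0.18, adjusted p = 0.0344) and 0.51 (SE 0.18, adjusted p = 0.0257) in AsPC-1, for sgRUVBL1 and sgRUVBL2 in that order. In AsPC-1 the CDK1 and RPA3 groups lay on either side of sgRosa, so the RUVBL1 libraries (ATF3 mean 14.1 ± 4.59 TPM) were above the sgCDK1 libraries (2.85 ± 0.548 TPM) and below the sgRPA3 libraries (27.9 ± 2.68 TPM). JUN was higher in AsPC-1 and T3M-4 (0.27 and 1.09 with sgRUVBL1), as was FOSB (0.47 and 0.98). IER3 was lower in AsPC-1 (-0.51) and higher in T3M-4 (0.57). Of 60 member tests, 21 were higher and 4 lower, against 35.8% of gene tests called (21.3% higher and 14.5% lower). The ATF3 calls in T3M-4 and of sgRUVBL1 in BxPC-3 held under every alternative, and those in AsPC-1 and of sgRUVBL2 in BxPC-3 did not. The JUN calls in AsPC-1 were lost under median-of-ratios scaling, at 0.15 (adjusted p = 0.217) with sgRUVBL1 and 0.18 (adjusted p = 0.160) with sgRUVBL2, and the FOSB call with sgRUVBL1 without sgCDK1 1 or sgRUVBL1 1 or 2.

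CHD4 knockout in AsPC-1 changed 4 members, in a comparison that called 50.0% of genes. FOSL1 rose from 109, 107, 112 and 120.4 TPM to 325, 329.9, 328 and 316 TPM, a difference of 1.53 (SE 0.04, adjusted p = 3.77e-10). ATF3 rose from 5.34, 6.31, 7.09 and 6.80 TPM to 13.7, 17.3, 19.1 and 22.8 TPM (1.36, SE 0.14, adjusted p = 8.27e-06). FOSL2 fell, from 31.8, 34.3, 35.8 and 34.0 TPM to 20.6, 14.6, 23.1 and 21.4 TPM (-0.76, SE 0.12, adjusted p = 0.000220), so FOSL1 and FOSL2 moved apart with no overlap of groups for either gene. JUNB was higher by 0.29 (adjusted p = 0.00230) with overlapping groups, and FOS was at 582, 625, 693 and 712 TPM against 678, 704, 648 and 778 TPM (-0.11, 95% interval -0.26 to 0.05). All 4 calls held under every alternative. SERPINB5 and CHD4 knockout in all called 3 member tests higher and 1 lower of 20, against 25.3% of gene tests (11.8% higher and 13.5% lower). Of the 13 AP-1 target genes tested with sgCHD4, 9 were higher and 3 lower, with MMP1 (2.94 on the log2 scale), a collagenase, and HBEGF (1.91), an EGF receptor ligand, among the higher ones. SERPINB5 knockout called 0.0343% of genes (4 of 11645, with 802 at an unadjusted p under 0.05, and 0.0172% in each direction) and no member, with FOS at 755, 633, 587 and 569 TPM against 578, 578, 622 and 668 TPM.

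CB-6644 lowered JUND and raised ATF3 in nearly every line tested. Without a resistance variant there were 6 comparisons. JUND fell in 6 of 6 and ATF3 rose in 5 of 6, FOSB rose in the 4 lines where it was tested, and IER3 fell in 4. EGR1 rose in 2 and fell in 3, so it differed in direction between lines. In all, 23 member tests were higher and 20 lower of 58, against 67.7% of gene tests called (44.7% higher and 22.9% lower).

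ATF3 had its widest change in A-375, from 9.48, 9.52, 8.67 and 7.78 TPM in DMSO to 176, 177, 178 and 171 TPM in CB-6644, 4.17 (SE 0.05, adjusted p = 6.03e-13), with 81.1% of genes called. RH30 went from 59.3, 55.0, 59.6 and 56.9 TPM to 178, 169, 181 and 170.1 TPM (1.58, SE 0.03, adjusted p = 2.38e-12, 77.7% called). H1048 went from 38.9, 38.8, 37.1 and 40.1 TPM to 98.9, 96.7, 94.5 and 102 TPM (1.32, SE 0.04, adjusted p = 6.73e-11, 77.9% called). In CB-6644 the levels of A-375 lay within those of RH30 (169 to 181 TPM in RH30 and 171 to 178 TPM in A-375), and H1048 was below both. T84 went from 27.7, 30.5, 29.1 and 31.3 TPM to 74.8, 64.8, 73.1 and 74.4 TPM (1.25, SE 0.06, adjusted p = 8.54e-11, 71.4% called). AsPC-1 with empty vector reached 84.9, 88.6 and 76.6 TPM, above its DMSO libraries at 57.2, 26.5 and 12.8 TPM (EV, A62T and dF109), 1.58 (SE 0.35, adjusted p = 0.00183) with 64.4% called. Against the EV DMSO library alone the change was 0.53 (adjusted p = 0.0147). T3M-4 with empty vector was at 28.4, 28.1 and 24.8 TPM against 11.3, 30.9 and 19.8 TPM (0.48, SE 0.25, adjusted p = 0.155, 34.3% called), within the range of the pooled controls. Against the EV DMSO library alone it was 1.19 (adjusted p = 7.02e-05).

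JUND fell by -0.98 to -1.25 on the log2 scale in the 4 lines without a vector. It went from 64.8, 56.6, 63.1 and 63.6 TPM to 29.5, 32.3, 34.8 and 27.3 TPM in T84 (-0.98, SE 0.07, adjusted p = 6.24e-09) and from 58.0, 61.8, 59.2 and 64.7 TPM to 25.4, 21.9, 28.3 and 24.8 TPM in A-375 (-1.25, SE 0.07, adjusted p = 1.07e-08). H1048 went from 69.9, 67.0, 62.8 and 63.6 TPM to 28.6, 28.3, 33.6 and 27.4 TPM (-1.14, SE 0.06, adjusted p = 8.14e-09). In RH30 the change was from 53.3, 52.9, 47.5 and 54.4 TPM to 23.5, 22.5, 23.7 and 24.5 TPM (-1.11, SE 0.05, adjusted p = 4.35e-10). No CB-6644 library reached a DMSO library of its line. A test of whether the 4 lines differed in their change, over 32 libraries, called 86.2% of genes and 9 of 10 members, and JUND was the member not called (adjusted p = 0.0893), which does not show that the lines changed alike. FOSB was among the 9, though under 1 TPM in the DMSO libraries of H1048 and RH30, where it was not tested alone. It passed the filter of this fit through T84 and A-375, so its call is no support for a difference among 4 lines. AsPC-1 with empty vector had JUND at 20.2, 24.4 and 26.6 TPM against 41.2, 44.0 and 37.8 TPM (-0.77, SE 0.10, adjusted p = 4.07e-05), and T3M-4 at 10.9, 9.27 and 7.46 TPM against 14.0, 18.1 and 13.6 TPM (-0.67, SE 0.15, adjusted p = 0.00570). The JUND transcript has a GC content of 69.9%, higher than 95.8% of genes, and its calls in AsPC-1, T84, A-375, H1048 and RH30 held when the trend with GC was removed.

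**Figure D4:**
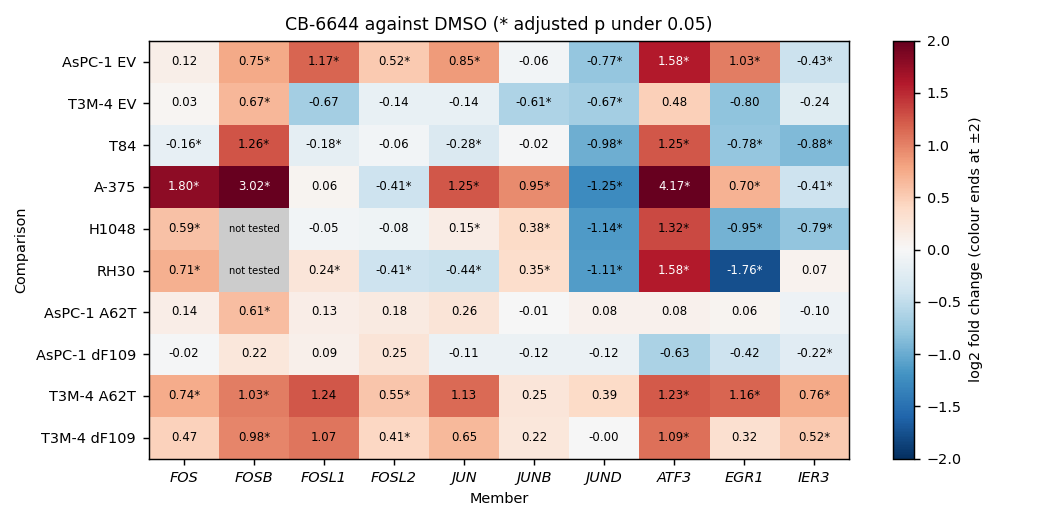
Log2 fold change, as log2(TPM + 1), of each member (columns) in CB-6644 against DMSO (rows) for cells with empty vector, with no vector and with a resistance variant, with a star at an adjusted p under 0.05 and grey where FOSB was under the limit of 1 TPM. JUND is blue and starred in the upper 6 rows, between -0.67 and -1.25, and is not starred in the lower 4, which carry A62T or dF109.

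Among the FOS genes, FOS and FOSB rose in A-375. FOS went from 2.59, 2.61, 2.17 and 3.54 TPM to 11.2, 11.5, 11.4 and 13.3 TPM (1.80, SE 0.10, adjusted p = 1.91e-08) and FOSB from 2.23, 2.61, 1.77 and 2.08 TPM to 24.0, 24.6, 26.2 and 23.5 TPM (3.02, SE 0.08, adjusted p = 5.42e-11). FOS also rose in H1048 (0.59) and RH30 (0.71) from levels of 2.11 ± 0.389 and 1.08 ± 0.398 TPM, and was -0.16 in T84 (adjusted p = 0.0191). FOSB rose in T84 from 1.69, 1.99, 1.52 and 1.77 TPM to 5.07, 5.62, 6.31 and 5.36 TPM (1.26, SE 0.09, adjusted p = 9.58e-09), in AsPC-1 by 0.75 and in T3M-4 by 0.67 (adjusted p = 0.00126 and 0.0348). FOSL1 went from 150.2, 79.7 and 56.9 TPM in DMSO to 181, 192 and 228 TPM in AsPC-1 with empty vector (1.17, SE 0.26, adjusted p = 0.00204). The EV library among those DMSO libraries was the highest, and against it alone the call was lost. A-375 held FOSL1 at 341 to 367 TPM against 314 to 362 TPM (0.06, 95% interval -0.04 to 0.16). FOSL2 fell in A-375 and RH30 (-0.41 and -0.41) and rose in AsPC-1 (0.52).

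JUN and EGR1 split by line. JUN rose in A-375, from 16.4, 15.1, 14.1 and 12.4 TPM to 35.1, 32.3, 39.1 and 36.4 TPM (1.25, SE 0.08, adjusted p = 4.88e-08), and fell in RH30, the line with most JUN, from 634, 643, 605 and 643 TPM to 453, 468, 473 and 467 TPM (-0.44, SE 0.03, adjusted p = 8.44e-09). It fell in T84 (-0.28) and rose in AsPC-1 (0.85, adjusted p = 0.000155), and in H1048 its 0.15 (adjusted p = 0.00625) turned to -0.06 under median-of-ratios scaling and to -0.06 with the GC trend removed. EGR1 fell in RH30 from 12.1, 12.2, 12.1 and 10.9 TPM to 2.51, 2.78, 3.27 and 2.62 TPM (-1.76, SE 0.07, adjusted p = 4.58e-10) and in H1048 from 7.28, 7.38, 7.20 and 7.19 TPM to 2.67, 3.47, 3.81 and 3.28 TPM (-0.95, SE 0.08, adjusted p = 6.05e-07). It fell in T84 as well (-0.78) but rose in A-375, from 7.14, 7.16, 6.77 and 7.94 TPM to 12.9, 11.8, 12.0 and 12.8 TPM (0.70, SE 0.06, adjusted p = 4.53e-07). Among the 4 lines the change in JUN and EGR1 differed with adjusted p of 1.73e-17 and 7.49e-18.

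**Figure D5:**
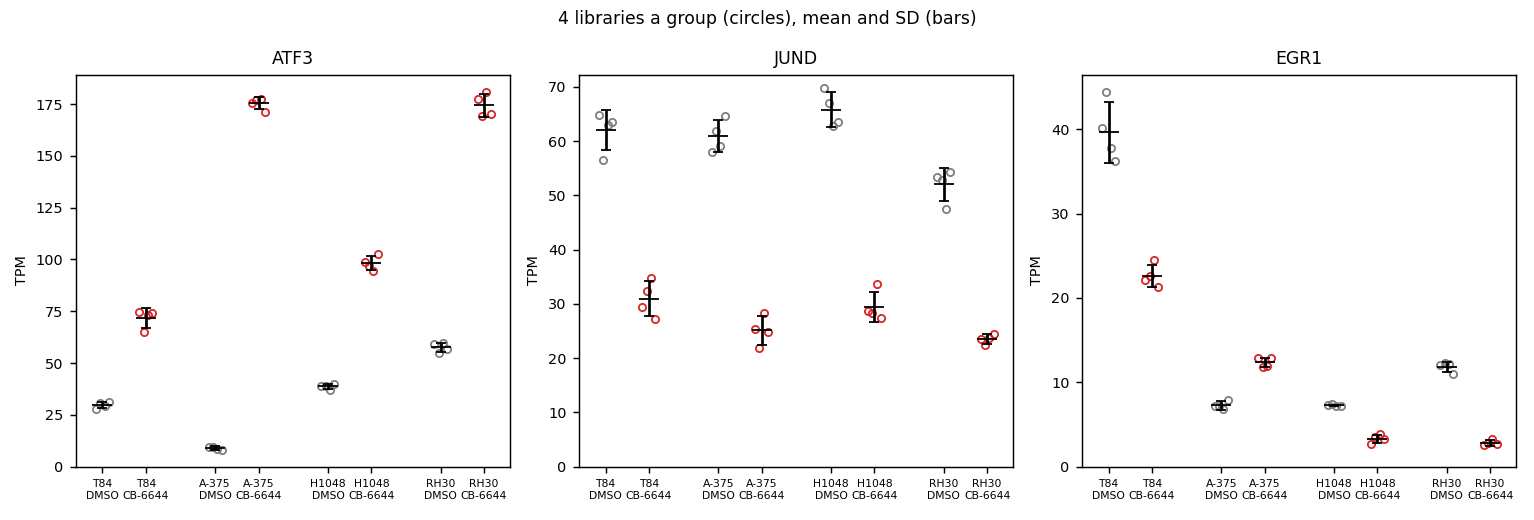
TPM of ATF3, JUND and EGR1 in T84, A-375, H1048 and RH30 in DMSO (grey) and CB-6644 (red), 4 libraries a group as circles, with the mean and SD as bars. ATF3 rises and JUND falls in each line with no overlap, whereas EGR1 falls in T84, H1048 and RH30 and rises in A-375.

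IER3 went from 302, 299, 288 and 304 TPM to 158, 158, 174 and 159 TPM in T84 (-0.88, SE 0.04, adjusted p = 8.54e-11) and from 111, 107, 116 and 114 TPM to 65.9, 57.8, 66.6 and 68.7 TPM in H1048 (-0.79, SE 0.05, adjusted p = 3.23e-08). It was lower by smaller amounts in A-375 (-0.41) and AsPC-1 (-0.43), and in RH30 it stood at 50.6 to 54.2 TPM against 48.0 to 51.2 TPM (0.07, 95% interval 0.00 to 0.14). JUNB rose from 56.2, 51.0, 45.7 and 49.5 TPM to 92.1, 92.1, 108 and 103 TPM in A-375 (0.95, SE 0.07, adjusted p = 1.14e-07), and by 0.38 in H1048 and 0.35 in RH30. In T3M-4 with empty vector JUNB fell, from 133, 161 and 152 TPM to 110.3, 96.5 and 84.5 TPM (-0.61, SE 0.10, adjusted p = 0.000742).

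Of the 43 member calls in CB-6644 without a resistance variant, 34 held under every alternative. In AsPC-1 with empty vector, FOSL1 lost its call against the DMSO library of that vector alone (adjusted p = 0.123). FOSL2 lost it against the DMSO library of that vector alone (adjusted p = 0.25). EGR1 lost it without A62T DMSO or dF109 DMSO or EV CB-6644 2 or 3 (adjusted p = 0.0555 to 0.120) or with no filter or against the DMSO library of that vector alone. In T3M-4 with empty vector, FOSB lost its call without 7 libraries in turn (adjusted p = 0.0502 to 0.114) or with no filter or in a fit of only the groups compared. JUND lost it in a fit of only the groups compared (adjusted p = 0.0608). In T84, FOS lost its call without CB-6644 4 or DMSO 3 or 4 (adjusted p = 0.0509 to 0.0581). FOSL1 lost it without CB-6644 4 or DMSO 1 or 2 (adjusted p = 0.0560 to 0.0872) or with no filter. In H1048, JUN lost its call under median-of-ratios scaling or with the GC trend removed (adjusted p = 0.175 to 0.209). In RH30, FOSL1 lost its call under median-of-ratios scaling (adjusted p = 0.130).

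In AsPC-1 cells with RUVBL1 A62T or RUVBL2 dF109, few members were called in CB-6644 against the pooled DMSO libraries. FOSB was higher with A62T (0.61, SE 0.16, adjusted p = 0.0299, 12.7% of genes called) and IER3 lower with dF109 (-0.22, SE 0.07, adjusted p = 0.0360, 33.4% called). Both calls were lost against the DMSO library of that vector alone, at 0.16 (adjusted p = 0.508) and -0.13 (adjusted p = 0.141), with no filter and in fits of only the groups compared. Other members changed more with dF109 against its own DMSO library alone: FOSL1 by 0.72, EGR1 by 0.59, FOSL2 by 0.56 and FOSB by 0.50. There ATF3 stood at 0.39, JUN at 0.28, FOS at 0.16, JUNB at 0.0086 and JUND at -0.0049. JUND in CB-6644 was at 44.3, 38.8 and 47.3 TPM with A62T and 39.6, 39.1 and 34.5 TPM with dF109, beside 20.2, 24.4 and 26.6 TPM with empty vector. The variants were therefore above the empty vector by 0.85 (SE 0.10, adjusted p = 3.45e-05) and 0.65 (SE 0.10, adjusted p = 0.000274), and both calls held under every alternative. ATF3 in CB-6644 was at 29.5, 27.7 and 28.9 TPM with A62T and 19.2, 18.9 and 13.9 TPM with dF109, beside 84.9, 88.6 and 76.6 TPM with empty vector, -1.50 (SE 0.35, adjusted p = 0.00364) and -2.21 (SE 0.35, adjusted p = 0.000311). JUN differed by -0.59 and -0.96, and FOSL1 by -1.04 and -1.07, on the log2 scale. With each vector's own DMSO library subtracted, as chosen after seeing the data, these calls were lost: ATF3 differed by -0.42 and -0.14 (adjusted p = 0.199 and 0.657), JUN by -0.41 and -0.29 and FOSL1 by -0.13 and 0.31. In DMSO, ATF3 was at 57.2, 26.5 and 12.8 TPM with EV, A62T and dF109, in the same order of vectors as in CB-6644, and whether vector or library sets that order cannot be told apart with 1 DMSO library each.

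In T3M-4, against the pooled DMSO libraries, 3 members were called with empty vector, and ATF3 and FOSB were higher in CB-6644 with both variants. Against the EV DMSO library alone, the empty-vector changes were 1.24 for JUN, 1.19 for ATF3, 1.12 for FOSB, 0.89 for FOSL1 and 0.79 for FOS. There IER3 was at 0.33, EGR1 at 0.15, FOSL2 at 0.012, JUNB at -0.46 and JUND at -0.57. The number of members called therefore does not rank the responses of the vectors. A62T (50.0% of genes called, median gene 0.33 higher) had 6 members higher, with FOSB (1.03), EGR1 (1.16), IER3 (0.76) and FOS (0.74), and dF109 (37.6% called, median gene 0.29 higher) had 4, with FOSB at 0.98. Against the A62T DMSO library alone, FOSB was 0.61 (adjusted p = 0.204), EGR1 0.15, FOS 0.17 and IER3 0.30, none of them called. Against the dF109 DMSO library alone, ATF3 was 1.05, FOSB 0.95, FOSL1 0.65, FOSL2 0.52, IER3 0.42 and JUN 0.41. EGR1 was 0.37 there, FOS 0.29, JUNB 0.18 and JUND 0.14. ATF3 was at 45.8, 45.1 and 47.7 TPM with A62T (1.23, SE 0.25, adjusted p = 0.00622) and 41.5, 42.6 and 41.9 TPM with dF109 (1.09, SE 0.25, adjusted p = 0.00844), against 11.3, 30.9 and 19.8 TPM in DMSO. The DMSO libraries of the vectors were themselves far apart: FOSL1 stood at 25.6, 173 and 104 TPM with EV, A62T and dF109, JUN at 3.22, 23.4 and 12.1 TPM and FOS at 2.33, 7.37 and 5.34 TPM. Taken against the empty vector in CB-6644, JUND (1.06 and 0.67), JUNB (0.86 and 0.84), EGR1 (1.96 and 1.13) and IER3 (1.0 and 0.76) were higher with A62T and dF109. When each vector's own DMSO library was subtracted instead, an alternative chosen after seeing the data that takes the lone library to vary like the others, all 8 of these calls were lost, with JUND at 0.71 and 0.71 (adjusted p = 0.206 and 0.212), JUNB at 0.59 and 0.64 (adjusted p = 0.0960 and 0.0974), EGR1 at 0.0013 and 0.22 and IER3 at -0.030 and 0.091. In the same alternative JUN with A62T turned to -1.26 (adjusted p = 0.00885) and ATF3 to -0.63 (adjusted p = 0.0378). Over both lines, 12 of 40 member tests of CB-6644 in variant cells were called, of which 3 held under every alternative, 11 higher and 1 lower (33.9% of gene tests, 30.4% higher and 3.53% lower). Of 40 against the empty vector 19 were higher and 10 lower (45.8%, 28.1% higher and 17.7% lower), and 3 of these 29 held under every alternative.

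Lists of related genes give the setting of the members. Within each group of comparisons, the genes named are those of a list called in the most comparisons, so their high counts follow from that choice. Of the AP-1 target genes, 16 of 17 listed were measured. After KLF5 knockout, where 20.6% of all gene tests were called, their tests were higher in 31 and lower in 22 of 111. The chemokine CXCL8 was higher in 7 of 8 comparisons (median 1.61). Among the other immediate early genes, those also known as YAP targets, CTGF and CYR61, were higher in 6 (median 1.70) and 5 (median 0.99). This list was higher in 47 and lower in 28 of 191, the bZIP partners, which dimerise with FOS or JUN proteins, in 16 and 8 of 107, and the upstream kinases and cofactors in 7 and 19 of 134, with RPS6KA1, a kinase below ERK, lower in 5. With sgRUVBL1 (45.6% of gene tests called), targets were higher in 30 and lower in 5 of 67 tests and bZIP partners in 29 and 4 of 66. The other immediate early genes were higher in 42 and lower in 29 of 115, and the upstream genes in 14 and 22 of 83. MAFF, a small MAF protein, was higher in 5 of 5 (median 0.73), as were GADD45B (median 0.71), a stress gene, and TIMP1 (median 0.42), a protease inhibitor. With sgRUVBL2 (30.1% called) the targets were higher in 22 and lower in 2 of 55 and the bZIP partners in 22 and 2 of 54. The other immediate early genes were higher in 38 and lower in 5 of 92, and the upstream genes in 8 and 4 of 67. Against the CDK1 and RPA3 knockouts (35.8% called), MAFF, GADD45B, CYR61, DUSP1 (a phosphatase that shuts off MAP kinases) and PLAUR (the urokinase receptor) were higher in 6 of 6. There the targets were higher in 39 and lower in 11 of 82 tests, and the bZIP partners in 37 and 8 of 82. The other immediate early genes were higher in 68 and lower in 9 of 142, and the upstream genes in 17 and 16 of 100.

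With CDK1 and RPA3 knockout (9.83% of gene tests called) the targets were higher in 13 and lower in 10 of 141 tests and the other immediate early genes in 27 and 17 of 234. The bZIP partners were higher in 15 and lower in 4 of 135, and the upstream genes in 6 and 4 of 168. In CB-6644 without a variant, where 67.7% of all gene tests were called, the targets were higher in 33 and lower in 27 of 74 and the bZIP partners in 42 and 23 of 82. The other immediate early genes were higher in 62 and lower in 48 of 144, and the upstream genes in 48 and 26 of 101. MYC was lower in 6 of 6 (median -0.94), as were KLF6 and the bZIP partners ATF4 (median -0.57) and ATF7. ATF4 is the factor that drives ATF3 in the integrated stress response, and its mRNA level does not show its protein. BTG2, an antiproliferative gene, was higher in 6 of 6 (median 0.77), as were MAPK8 and MAPK9, which encode the JUN kinases, while MAP2K7, the kinase upstream of them, was lower in 6 of 6. Among the targets HBEGF was higher in 5 of 6 (median 1.34), while CXCL8 was lower in 4 of 5 and higher in 1 (median -1.54) and VEGFA, an angiogenic factor, lower in 5 of 6 and higher in 1 (median -0.48).

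The genes whose log2 changes ran most like those of a member over the 39 comparisons, of 9564 genes with a value in all, differed between members, and these correlations describe comparisons that share controls. JUN went with EGR1 (r = 0.79), CSRNP1 (0.77) and NFKBIA (0.74), and EGR1 with JUN (0.79), RELB (0.78) and STX4 (0.76). ATF3 went with GADD45A (0.85), SESN2 (0.72) and TUFT1 (0.68). JUND went with RING1 (0.86), ZBTB22 (0.85) and ZNF414 (0.84), and FOSL2 with GNPTAB (0.87), KCTD20 (0.86) and ARIH1 (0.84). FOSL1 went with SPRY4 (0.80), PXN (0.79) and STX1A (0.78), IER3 with TTC5 (0.75), PIGO (0.74) and KLF6 (0.72), JUNB with ABTB1 (0.77), and FOS with EEPD1 (0.72), JUNB (0.64) and ARRDC1 (0.62). FOSB had no value in every comparison and was left out. Within groups, where libraries share a condition, the deviations of FOS and EGR1 from their group means correlated at 0.81 and those of FOSL2 and EGR1 at 0.78 over 183 libraries.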

How the data were processed

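RNA was sequenced as single-end poly-A libraries (TRIzol, TruSeq RNA kit v2). Per the methods and labels, the authors quantified transcripts with kallisto on hg38 and summed them to genes with tximport, removed low-abundance transcripts at an unstated limit, and deposited TPM. TPM keep no read depth, so counting error is unknown. The authors' own count model was not used, since no counts were analysed here. Every library summed to 1e+06 TPM over 19875 names. Members and gene lists were chosen with earlier results of these data known. Limma 3.58.1 (R 4.3.3) was fitted to log2(TPM + 1), which understates changes of low genes, over all groups of a line and experiment, leaving out genes whose mean was under 1 TPM, with Benjamini-Hochberg adjustment over all genes and a threshold of 0.05. Contrasts between experiments used 1 joint fit per line. The alternatives were a pseudocount of 0.1, no filter or one at 5 TPM, median-of-ratios scaling, a replicate block, fits of only the groups compared, the DMSO library of the same vector alone, and each library left out. Chosen after seeing the data were removal of the GC trend, omission of libraries correlating under 0.97 with their group mean or of CFPAC-1, and differences against each vector's own DMSO library. Genes named besides the members came from the fixed lists (AP-1 targets, bZIP partners, other immediate early genes, upstream kinases and cofactors, markers) or were the 3 most correlated with a member. From each list other than the markers, up to 3 genes called in the most comparisons of a group were eligible to be named. Ties went to the larger median absolute log2 change. Replicate numbers came from the sample titles. Same-numbered libraries were checked for joint deviation from their group means, and no perturbed group exceeded r = 0.1 with its controls in every pair. Scripts ran in Python 3.11.15 (pandas 2.3.3, numpy 2.4.6, scipy 1.17.1, matplotlib 3.10.9) and were tested on simulated data.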

Additional observations from a re-analysis of the deposited data

Results flagged for a closer look

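In groups of 4 to 10 libraries, a library was taken as outlying where its gap to the nearest other library was a larger part of the group's range than Dixon's 95% critical value allows. Chance gives about 1 in 20, and 18 of 300 sets of a member and a group, in 17 libraries, met it. FOS was at 440.4 TPM in AsPC-1 experiment 1 sgKLF5 replicate 3 (others 489 to 511 TPM), 11.4 TPM in BxPC-3 experiment 2 sgRosa replicate 1 (others 8.53 to 8.84 TPM) and 13.3 TPM in A-375 CB-6644 replicate 4 (others 11.2 to 11.5 TPM). FOSB was at 0.171 TPM in H1048 DMSO replicate 3 (others 0.343 to 0.374 TPM). FOSL2 was at 20.9 TPM in AsPC-1 experiment 2 sgRUVBL1 replicate 1 (others 26.3 to 26.8 TPM), 3.29 TPM in SUIT-2 sgRosa replicate 1 (others 9.48 to 10.3 TPM) and 15.2 TPM in H1048 CB-6644 replicate 3 (others 13.8 to 14.0 TPM). JUN was at 23.2 TPM in AsPC-1 experiment 3 sgRosa replicate 4 (others 18.2 to 18.9 TPM), 18.2 TPM in AsPC-1 experiment 3 sgRUVBL2 replicate 2 (others 22.6 to 23.5 TPM) and 7.39 TPM in SUIT-2 sgRosa replicate 1 (others 17.8 to 19.6 TPM). JUNB was at 174 TPM in AsPC-1 experiment 2 sgRUVBL1 replicate 2 (others 188 to 191 TPM), 58.2 TPM in AsPC-1 experiment 3 sgKLF5 replicate 1 (others 73.0 to 74.5 TPM) and 171 TPM in T3M-4 experiment 2 sgKLF5 replicate 2 (others 158 to 159.7 TPM). ATF3 was at 15.8 TPM in AsPC-1 experiment 3 sgRUVBL2 replicate 4 (others 13.3 to 13.7 TPM) and 21.6 TPM in T3M-4 experiment 2 sgKLF5 replicate 1 (others 23.2 to 23.5 TPM). EGR1 was at 30.9 TPM in BxPC-3 experiment 1 sgKLF5 replicate 3 (others 48.3 to 49.4 TPM) and 10.9 TPM in RH30 DMSO replicate 4 (others 12.1 to 12.2 TPM). IER3 was at 174 TPM in T84 CB-6644 replicate 3 (others 158 to 159 TPM).

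For the following members the change with a knockout differed between 2 experiments of a line by the limma interaction contrast (log2 of the later minus the earlier experiment, adjusted p under 0.05). With sgKLF5 in AsPC-1 it was 0.65 for JUN and -0.88 for ATF3. In T3M-4 it was -1.77 for FOSB, 1.35 for FOSL2, -0.86 for JUND, -1.32 for ATF3 and 0.75 for IER3. BxPC-3 gave 1.14 for FOS, 1.34 for FOSL1, 0.73 for JUN, -0.69 for JUND, -1.48 for ATF3, 1.26 for EGR1 and 1.29 for IER3. With sgRUVBL1 in AsPC-1 it was 1.18 for FOS, 2.06 for FOSB, 1.05 for JUN, 1.06 for EGR1 and -0.51 for IER3. The change in CB-6644 differed among T84, A-375, H1048 and RH30, by limma's F test over 32 libraries, with an adjusted p of 1.57e-10 for FOS, 5.78e-20 for FOSB, 0.0117 for FOSL1, 9.93e-06 for FOSL2, 1.73e-17 for JUN, 1.95e-09 for JUNB, 1.04e-24 for ATF3, 7.49e-18 for EGR1 and 3.59e-14 for IER3. FOSB passed the filter of that fit through T84 and A-375 and was too low in H1048 and RH30 to be tested alone, so its value is no support for a difference. What sets these differences was not tested.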

How the results depend on the processing

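Of the 172 member calls against sgRosa or DMSO, 105 held under every alternative. Those counts of calls that moved by more than 1.5 times are given here as alternative against reported value, and their cause was not tested. The median gene itself differed by -0.22 (sgKLF5, T3M-4 experiment 1) to 0.33 (CB-6644 with A62T, T3M-4) on the log2 scale. Under median-of-ratios scaling, calls lower with sgRUVBL2 numbered 3 against 6, lower with sgCDK1 or sgRPA3 14 against 9, and in CB-6644 with a variant 5 against 11 higher and 7 against 1 lower. With the GC trend removed, calls lower with sgCDK1 or sgRPA3 were 16 and in CB-6644 with a variant 5. In fits of only the groups compared, sgRUVBL2 had 2 lower, and CB-6644 with a variant 7 higher and 0 lower. That last count was also 0 with no filter and 0 against each vector's own DMSO library alone. Against the empty vector, subtracting each vector's own DMSO library gave 4 calls higher against 19 and 3 lower against 10, and turned the sign of FOSL2 in AsPC-1 with A62T (0.068), of EGR1 (0.54) and FOSL1 (0.31) in AsPC-1 with dF109, of ATF3 (-0.63), FOS (-0.62), FOSL1 (-0.80), IER3 (-0.030) and JUN (-1.26) in T3M-4 with A62T, and of FOSL1 (-0.24) in T3M-4 with dF109. JUN in H1048 turned to -0.057 under scaling and -0.062 with the GC trend removed.

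The replicate block gave the same call for 224 of 231 called values, lost 7 and added 24, and moved the calls lower with sgSERPINB5 or sgCHD4 from 1 to 2. Its numbers do not pair perturbed libraries with their controls. They pair sgRUVBL1 with sgRUVBL2 in BxPC-3 experiment 2, which were not compared. They also pair sgCDK1 with sgRPA3 in AsPC-1 experiment 3 (r = 0.142) and T3M-4 experiment 2 (r = 0.488), groups averaged in the test of the RUVBL guides against them.

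With 1 library left out in turn, calls higher and lower ranged over 18 to 25 and 13 to 18 for sgKLF5, 16 to 19 and 15 to 16 for sgRUVBL1, 13 to 16 and 2 to 7 for sgRUVBL2, 14 to 20 and 6 to 12 for sgCDK1 and sgRPA3, 3 to 4 and 1 to 2 for sgSERPINB5 and sgCHD4, 22 to 24 and 18 to 24 for CB-6644 without a variant, 7 to 20 and 0 to 4 with one, 13 to 22 and 8 to 11 for a variant against empty vector, 16 to 25 and 2 to 7 for the RUVBL guides against sgCDK1 and sgRPA3, 5 to 9 and 3 to 8 for sgKLF5 between experiments, and 4 to 5 and 1 to 1 for sgRUVBL1 between them. Calls among the 4 lines in CB-6644 ranged from 9 to 10. The lowest count for sgRUVBL2 (2) came without either sgRUVBL2 library of CFPAC-1, and 3 without its sgRosa 1 or 3. In CB-6644 with a variant, 20 higher came without the A62T DMSO library of T3M-4 and 7 without its dF109 or EV DMSO library or A62T CB-6644 1 or 3, and 4 lower without the dF109 DMSO library of AsPC-1, and 0 without any dF109 CB-6644 library, EV CB-6644 2 or the EV DMSO library. The other counts moved so without AsPC-1 sgCHD4 4 (2 lower), AsPC-1 experiment 3 sgCDK1 1 (2 lower) or BxPC-3 experiment 2 sgRUVBL2 1 (7 lower) in the RUVBL against CDK1 and RPA3 test, and, between experiments, BxPC-3 experiment 1 sgRosa 1 or 2 or experiment 2 sgRosa 4 (5 higher) and T3M-4 experiment 1 sgRosa 1 (3 lower).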
